A study of Mus musculus with 13 samples.

Results

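Chemokines are small secreted proteins that guide leukocytes, and chemokine receptors are the G protein-coupled receptors that read them. Their transcripts were followed in damaged hepatocytes (dHeps), hepatocytes taken from livers of C57BL/6-background mice with chronic carbon tetrachloride (CCl4) injury. Members were all gene symbols of the count table built as Ccl, Cxcl, Ccr or Cxcr plus a number, with Cx3cl1 and Cx3cr1, that had at least 10 counts in at least 2 libraries. This rule kept 34 of 43 matching symbols, out of 27141 listed genes, and all 34 entered the test. They were 25 ligands and 9 receptors. The 9 symbols left out were Ccl11, Ccl19, Cxcl9, Cxcl11, Cxcl15, Ccr2, Ccr4, Ccr9 and Cxcr6.

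Wild-type dHeps were kept for 16 days in serum-free Hepatocyte Maintenance Medium. DMSO, the solvent, was the control. The 5C cocktail held GSK429286A (G, an inhibitor of the kinase ROCK), CID755673 (C, an inhibitor of protein kinase D), ETC-1002 (E, an activator of the kinase AMPK), forskolin (F, which switches on adenylate cyclase) and the plant compound Salidroside (S). The groups 5C-G, 5C-C, 5C-E and likewise 5C-F and 5C-S lacked the compound named after the minus sign. There were 2 libraries for each group except 5C-S, which had 1, making 13 libraries in 7 groups, and the libraries of a group are called A and B with no pairing across groups. All cells came from injured livers, isolated by perfusion with pronase and collagenase rather than by sorting, and no library of uninjured cells was among those analysed here. The labels do not say whether libraries A and B came from separate animals, so p-values measure the spread between these libraries only.

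Chemokines fall into families named after the spacing of cysteines near their amino end. Inflammatory CC ligands such as Ccl2 draw monocytes through receptors such as Ccr2 and Ccr1. CXC ligands with a glutamate-leucine-arginine (ELR) motif, such as Cxcl1, draw neutrophils, and homeostatic ligands such as Cxcl12 and Cxcl13 position cells in resting tissue. In injured liver, hepatocytes, stellate cells, endothelial cells and macrophages all make chemokines, and Kupffer cells and recruited macrophages carry most of the inflammatory receptors. A bulk library sums over all cells of the well, so fewer cells of a type and less RNA per cell cannot be told apart in any value given here.

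Total counts ran from 30195867 to 45491932 per library. Over the 500 most variable genes, each library of the groups with 2 was closest to its partner except 5C-G library A, which was closest to DMSO library B (r = 0.725). Values of members in 5C-G are therefore also given without each library where a call depends on it. The single 5C-S library was closest to 5C library A (r = 0.785). Hepatocyte markers were present in every library, with the 7 markers (Alb among them) summing to between 3230 and 21700 FPKM (fragments per kilobase of transcript, scaled to library size). All 12 macrophage markers on a fixed list were also detected, though Clec4f and Timd4 reached only 0.784 and 0.797 FPKM, with 0 in some libraries. The sum over the 12 was carried mainly by C1qa, C1qb, C1qc and Cd68. This sum was 2780 FPKM in both DMSO libraries, 324 and 351 in 5C, 3180 and 4890 in 5C-G, 751 and 1250 in 5C-C, 479 and 603 in 5C-E, 1010 and 1290 in 5C-F and 407 in 5C-S. The sum of 4 monocyte markers was lowest in DMSO (39.9 and 40.2 FPKM), stood at 59.2 and 77 in 5C and was highest in 5C-C (205 and 217). It was carried by Plac8, which ranged from 33.1 to 210 FPKM and was called higher in 5C-C against 5C (log2 fold change 1.88, SE 0.21, edgeR adjusted p = 1.57e-05). Markers of the other leukocytes listed were low, with sums of at most 5.04 FPKM for neutrophils, 2.54 for dendritic cells, 0.692 for T cells, 1.13 for NK cells and 0.269 for B cells. The T cell genes Cd3e and Cd3g, the neutrophil genes Ly6g and Elane and the monocyte gene Ly6c2 stayed at or under 10 counts in every library. Of the 34 members, 15 overlap another annotated gene, and the library kit named in the labels does not mark strand. Ccl6 and Ccl9 share such an overlap with the antisense transcript E230016K23Rik. These overlaps are of whole gene spans, introns included. Whether exons overlap was not examined, so it is not known if any counted reads are shared.

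The 25 ligands together were most abundant in the groups with high macrophage marker sums and in 5C-F. Their summed level was 395 and 427 FPKM in DMSO, 239 and 247 in 5C, 421 and 475 in 5C-G, 181 and 237 in 5C-C, 198 and 192 in 5C-E, 368 and 410 in 5C-F and 231 in 5C-S. Both 5C libraries lay below every DMSO, 5C-G and 5C-F library. The leading ligand also differed. Ccl6 held 29.9% and 30% of the summed ligand FPKM in DMSO, and 27.1% and 32.2% in 5C-G. Cxcl12 led in both 5C libraries (23.9% and 23.6%), in both 5C-E libraries (30.5% and 28.8%) and in 5C-S (26.3%). Ccl2 led in both 5C-F libraries (21% and 22.8%), and in 5C-C the lead was held by Cxcl12 in library A and by Ccl6 in library B. Among the 9 receptors, Ccr1 held between 60.9% and 78.5% of the summed FPKM in every library. The receptor sum was 67.3 and 68.3 FPKM in DMSO, 9.39 and 11 in 5C, and 46.8 and 40.7 in 5C-G, with all other libraries between 9.13 and 14.8.

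**Figure D1:**
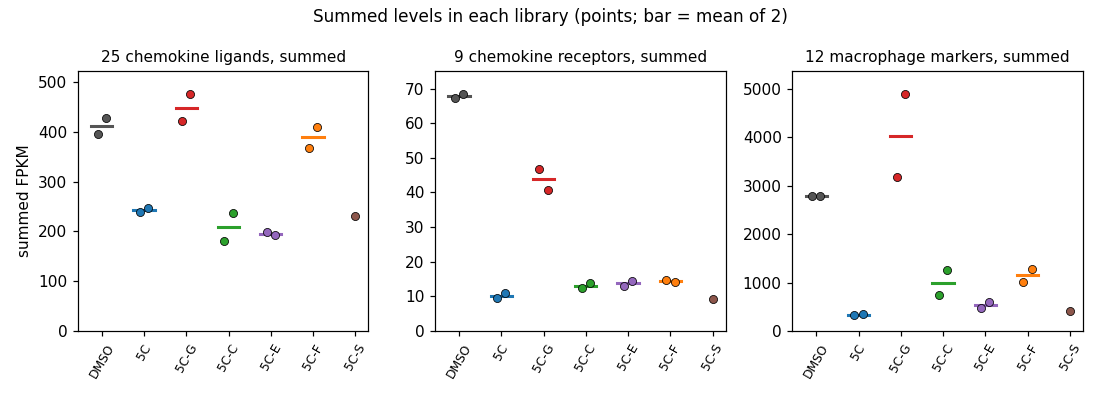
Summed FPKM (vertical axis, linear from 0) of the 25 chemokine ligands, the 9 chemokine receptors and 12 macrophage markers in each of the 13 libraries, by group (horizontal axis). Points are libraries and bars the mean of 2 libraries, and the receptor sum of both 5C libraries (9.39 and 11) lies far below DMSO (67.3 and 68.3) and 5C-G (46.8 and 40.7).

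Levels spread over a wide range. By mean FPKM over the 13 libraries, the 6 highest members were Ccl6 (59.4), Cxcl12 (44.4), Ccl2 (41.8), Ccl8 (28.1), Cxcl16 (24.8) and Ccl9 (20.7). There were 13 members at or above 1 FPKM in every library and 12 below 1 FPKM in every library. The low group, which never passed 0.964 FPKM, comprised Ccl5, Ccl24, Ccl25, Ccl28, Cxcl2, Cxcl3 and the receptors Ccr3, Ccr7, Ccr10, Cx3cr1, Cxcr3 and Cxcr5.

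The effect of the cocktail was tested by 5C against DMSO, and the part of each compound by the group without it against 5C, in one edgeR quasi-likelihood fit over all genes. A call was an adjusted p (Benjamini-Hochberg over all 19884 genes in the fit) under 0.05 with a change of more than 2-fold. In 5C against DMSO, 8 of 34 members were called. Cxcl5 was higher, against 1.66% of all genes called higher, and 7 were lower, among them Ccl6, Ccl8, Ccl9, Ccl12, Ccr1 and Cxcr4, against 2.89% of all genes called lower. The median log2 fold change over all 34 members was -0.10, beside 0.01 over all genes, so the calls concerned a minority of members. Of the 12 macrophage markers, 10 were also called lower in this comparison. The part of macrophage content in the member calls was not tested.

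Leaving out GSK429286A gave 11 called members. In 5C-G against 5C, 8 were higher (Ccl3, Ccl4, Ccl6, Ccl8, Ccl9, Ccl12, Ccr1 and Cxcr4; background 7.47%) and 3 were lower (Cxcl1, Cxcl5 and Cxcl13; background 5.64%). Leaving out CID755673 gave 6. In 5C-C against 5C, Ccl6, Ccl8, Cxcl14 and Cxcl17 were higher (background 9.65%) and Cxcl13 and Cx3cr1 were lower (background 10.5%). These 6 of 34 members are near the share of all genes called. With an offset for GC content and gene length 8 members were called, while the calls over all genes fell from 4011 to 2049. With limma 5 members and 2318 genes were called. Only 1 member was called without ETC-1002, where Cxcl13 was lower in 5C-E against 5C (background 1.31% lower and 0.654% higher), and the count of 0 higher members was the same with DESeq2, with limma and at an unadjusted p under 0.05. With forskolin left out, 5C-F against 5C gave 4 higher members, Ccl2, Ccl6, Ccl8 and Ccl9 (background 2.69%), and no lower one (background 2.15%). That last count of 0 was also 0 with DESeq2, with limma and at an unadjusted p under 0.05. For 5C-G against 5C, 12 members were called without 5C-G library A and 9 without library B, with 3945 and 1395 genes called in all where 2607 were called with every library. For 5C-E against 5C the calls over all genes fell from 390 to 196 without 5C library B, to nearly the same number without 5C library A and to 138 without 5C-E library B. For 5C-F against 5C they fell from 962 to 368 without 5C library A, 294 without 5C library B and 639 without 5C-F library B. Of the 12 macrophage markers, 10 were called higher than in 5C without GSK429286A, 6 without CID755673, 9 without forskolin and 0 without ETC-1002. That 0 in the edgeR test was also 0 with DESeq2 and with limma, and 1 at an unadjusted p under 0.05. The 6 without CID755673 were Cd68, C1qa, C1qb, C1qc, Marco and Fcgr1. In the same comparison the macrophage markers Adgre1 and Vsig4 lay below 5C without a call. Adgre1 was at 10.1 and 8.25 FPKM against 11.5 and 12.6 in 5C, and Vsig4 at 28 and 21 against 38.2 and 37.4. The median over members was 0.08, 0.04, -0.29 and 0.70 in 5C-G, then 5C-C, then 5C-E, then 5C-F, beside -0.01, 0.00, 0.01 and -0.01 over all genes, and with genes at 3 or fewer counts in a group set to their bound it was 0.08, 0.04, -0.27 and 0.57. These 4 comparisons share the 5C libraries, and the 5C libraries also enter 5C against DMSO with the opposite sign.

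Against DMSO, the removals left different sets. In 5C-G against DMSO 4 members were called, with Ccl8 higher (background 3.11%) and Cx3cr1 and Cxcl13 among the 3 that were lower (background 2.72%). The 11 called in 5C-C against DMSO included Cxcl3, Cxcl14 and Cxcl17, which were higher (background 10.4%), and Ccl6, Ccl8, Ccl9, Ccl12, Ccr1, Cxcr4 and Cx3cr1, which were lower (background 11.7%). In 5C-E against DMSO 10 members were lower (among them Ccl2, Ccl6, Ccl8, Ccl9, Ccl12, Ccr1, Cxcr4, Cx3cr1 and Cxcl13; background 3.68%) and none higher (background 2.41%), a count of 0 that was also 0 with DESeq2, 1 with limma and 2 at an unadjusted p under 0.05. The 9 called in 5C-F against DMSO included Cxcl1, Cxcl3, Cxcl5 and Cxcl13, higher (background 3.18%), and Ccl6, Ccl9, Ccr1 and Cxcr4, lower (background 4.22%). Single libraries moved these calls. Over all genes, the 1160 calls in 5C-G against DMSO became 217 without DMSO library A, 374 without DMSO library B, 260 without 5C-G library B and 2722 without 5C-G library A. The 1210 in 5C-E against DMSO became 801 without 5C-E library B, and the 1472 in 5C-F against DMSO became 784 without DMSO library A and 939 without library B. Among the members, Cxcl17 in 5C-C lost its call without DMSO library B (edgeR adjusted p = 0.0781), Ccl12 in 5C-E without 5C-E library B (adjusted p = 0.0606) and Ccl9 in 5C-F without 5C-F library B (log2 fold change -0.98), and further losses are given with each gene. Of the macrophage markers, 10, 10 and 9 were lower in 5C-C, 5C-E and 5C-F than in DMSO and 0 were called in 5C-G by edgeR, DESeq2, limma or an unadjusted p under 0.05.

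**Figure D2:**
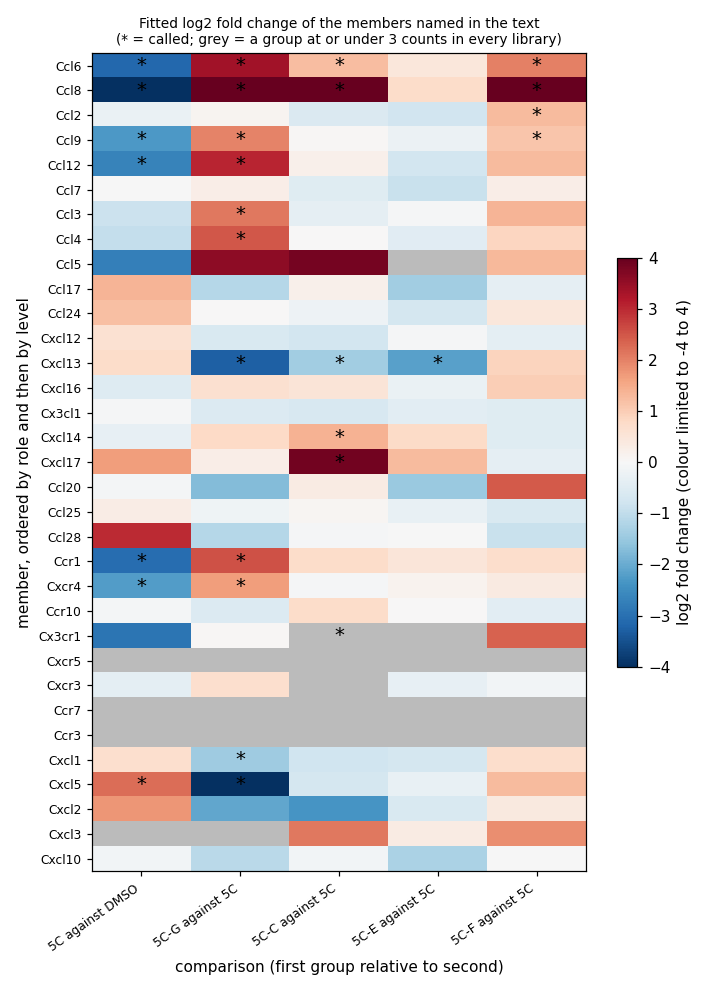
Fitted log2 fold change of the named members (rows, by role and then by level) in 5C against DMSO and in each tested removal against 5C (columns), with colour limited to -4 to 4, asterisks on called values and grey where a group had 3 or fewer counts in every library. Ccl6 and Ccl8 are called lower in 5C and higher in 5C-G, 5C-C and 5C-F, and Cxcl13 is called lower in 5C-G, 5C-C and 5C-E.

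Inflammatory CC ligands sit mainly in a pair of clusters on chromosome 11. The first holds Ccl2, Ccl7, Ccl12 and Ccl8, in that order on the plus strand over 81.2 kb (GRCm39 chr11:81926397-82007625). Ccl2 and Ccl8 lie at its ends, 77.7 kb apart, and behaved differently, so the bases before their annotated starts are shown (GRCm39, plus strand, chr11:81926147-81926396 for Ccl2 and chr11:82005757-82006006 for Ccl8, all in lower case because neither holds the motif marked in capitals for the CXC ligands further on).
Ccl2: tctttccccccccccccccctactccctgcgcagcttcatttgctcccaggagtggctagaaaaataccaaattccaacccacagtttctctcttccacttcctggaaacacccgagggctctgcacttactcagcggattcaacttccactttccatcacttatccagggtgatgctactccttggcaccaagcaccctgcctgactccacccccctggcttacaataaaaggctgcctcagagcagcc
Ccl8: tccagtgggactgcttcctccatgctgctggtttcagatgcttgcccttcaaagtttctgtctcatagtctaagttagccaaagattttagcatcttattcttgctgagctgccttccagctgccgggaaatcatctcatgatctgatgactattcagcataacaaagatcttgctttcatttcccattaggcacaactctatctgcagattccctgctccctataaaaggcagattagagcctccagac

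Ccl8, a leukocyte attractant of the monocyte chemoattractant family, had the widest range of the cluster. Its level was 42.4 and 42.8 FPKM in DMSO, 0.933 and 1.78 in 5C, 80.4 and 111 in 5C-G, 11.3 and 27.1 in 5C-C, 1.93 and 2.76 in 5C-E, 20.8 and 19.2 in 5C-F and 3.33 in 5C-S. Both 5C libraries were the lowest of all 13, and both 5C-G libraries the highest. The fall in 5C was 33.1-fold (log2 fold change -5.05, SE 0.44, edgeR adjusted p = 7.65e-07). Without GSK429286A it rose by 6.29 on the log2 scale (SE 0.46, edgeR adjusted p = 1.71e-07), without CID755673 by 4.01 (SE 0.44, adjusted p = 1.1e-05) and without forskolin by 3.98 (SE 0.44, adjusted p = 8.29e-05). The groups 5C-E and 5C did not differ beyond the spread (0.72, SE 0.47, adjusted p = 0.528). Removals also differed from each other. Ccl8 was 4.85-fold higher in 5C-G than in 5C-C (edgeR adjusted p = 3.87e-04) and 4.94-fold higher than in 5C-F (adjusted p = 3.13e-04), and it was 9.62-fold lower in 5C-E than in 5C-F (adjusted p = 3.28e-05). The order of group means was thus 5C-G, DMSO, 5C-F and 5C-C, then 5C-S, 5C-E and 5C. The step from DMSO to 5C-G was called (2.36-fold, edgeR adjusted p = 0.0266), but not without DMSO library A (adjusted p = 0.189), DMSO library B (0.147) or 5C-G library B (0.306). The step from DMSO down to 5C-F missed the threshold (adjusted p = 0.0515) and passed it with DESeq2 (0.0313). That from DMSO down to 5C-C was called (2.05-fold), but not without DMSO library A (adjusted p = 0.107), DMSO library B (0.0934) or 5C-C library A (0.245), nor with only those 2 groups in the fit (0.0902).

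Ccl12, the mouse monocyte chemoattractant protein 5, lies 11.5 kb from Ccl8. It stood at 9.87 and 16.2 FPKM in DMSO, 0.888 and 3.39 in 5C, 13.7 and 18.1 in 5C-G, 0.862 and 3.39 in 5C-C, 1.89 and 0.798 in 5C-E, 4.81 and 4.87 in 5C-F and 1.42 in 5C-S. DMSO and 5C-G formed the high group, and no other library exceeded 4.87. The fall in 5C against DMSO was 6.38-fold (edgeR adjusted p = 0.0149) and was no longer called without DMSO library B (adjusted p = 0.141) or 5C library A (0.202). The rise in 5C-G against 5C was 8.21-fold (adjusted p = 0.00263).

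Ccl2, monocyte chemoattractant protein 1, did not follow Ccl8 in the cocktail. Its level was 44.0 and 43.9 FPKM in DMSO, 44.9 and 31.9 in 5C, 47.9 and 29.0 in 5C-G, 16.1 and 29.2 in 5C-C, 25.3 and 21.5 in 5C-E, 77.2 and 93.4 in 5C-F and 39.4 in 5C-S. The 5C libraries lay on both sides of the DMSO libraries (log2 fold change -0.27, SE 0.26, edgeR adjusted p = 0.674), and 5C-G overlapped both groups. Both 5C-F libraries stood above all others. The difference of 5C-F from 5C was 2.38-fold (edgeR adjusted p = 0.00767), and the call was lost without 5C library B (adjusted p = 0.127) or 5C-F library B (0.0574). Ccl2 was 4.09-fold lower in 5C-E than in 5C-F (adjusted p = 6.33e-05) and 3.56-fold lower in 5C-C than in 5C-F (adjusted p = 1.65e-04). The lower level in 5C-E than in DMSO was 2.08-fold (adjusted p = 0.0152), and the adjusted p was 0.0735 to 0.175 when any 1 library was left out. Ccl7, its neighbour 8.25 kb away and also a monocyte attractant, moved over a narrower range, from 6.27 FPKM in 5C-E library B to 16.7 in 5C-G library A. It was at 12.1 and 14.3 in DMSO and 12.2 and 15.1 in 5C, and it was not called by edgeR, DESeq2 or limma in the 5 main comparisons.

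The second cluster holds Ccl5, Ccl9, Ccl6, Ccl3 and Ccl4 over 139 kb (GRCm39 chr11:83416602-83555509). Ccl6, a macrophage-expressed ligand of Ccr1 and the most abundant member, lies 5.55 kb from Ccl9, another Ccr1 ligand. Ccl6 was at 118 and 128 FPKM in DMSO, 13.9 and 15.2 in 5C, 114 and 153 in 5C-G, 27.0 and 34.2 in 5C-C, 21.4 and 20.4 in 5C-E, 50.2 and 61.5 in 5C-F and 14.4 in 5C-S. DMSO and 5C-G overlapped at the top, 5C-F lay between, and 5C and 5C-S were lowest. The fall in 5C was 8.90-fold (log2 fold change -3.15, SE 0.22, edgeR adjusted p = 6.24e-08). Against 5C the rise was 10.2-fold in 5C-G (adjusted p = 6.96e-08), 4.10-fold in 5C-F (adjusted p = 5.73e-05) and 2.36-fold in 5C-C (adjusted p = 2.78e-04), while 5C-E was 1.36-fold higher and not called (adjusted p = 0.324). These steps differed in size. Ccl6 was 4.31-fold higher in 5C-G than in 5C-C (adjusted p = 5.08e-06) and 2.49-fold higher than in 5C-F (adjusted p = 3.05e-04), the latter falling just under 2-fold without 5C-G library B (log2 fold change 0.98).

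Ccl9 gave 43.5 and 49.2 FPKM in DMSO, 8.77 and 11.2 in 5C, 32.0 and 38.7 in 5C-G, 7.88 and 10.6 in 5C-C, 8.99 and 8.63 in 5C-E, 22.5 and 17.4 in 5C-F and 9.73 in 5C-S. Unlike those of Ccl6, the 5C-C libraries overlapped 5C. The fall in 5C was 4.88-fold (edgeR adjusted p = 3.29e-06) and the rise in 5C-G 3.91-fold (adjusted p = 1.48e-05). In 5C-F against 5C the 2.15-fold rise (adjusted p = 0.00649) was not called without 5C library A (adjusted p = 0.108) or 5C-F library A (0.0544), and with total counts as the only scaling it stood at the 2-fold limit (log2 fold change 1.00).

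Ccl3 and Ccl4, the macrophage inflammatory proteins 1 alpha and beta, which act through Ccr1 among other receptors, were less abundant. Ccl3 was at 2.64 and 3.64 FPKM in DMSO, 1.56 and 2.08 in 5C, 5.52 and 8.54 in 5C-G, 1.90 and 0.716 in 5C-C, 2.22 and 1.44 in 5C-E, 3.78 and 4.94 in 5C-F and 2.14 in 5C-S. Ccl4 was at 2.19 and 3.89 in DMSO, 1.44 and 1.87 in 5C, 8.43 and 8.50 in 5C-G, 2.40 and 0.665 in 5C-C, 1.5 and 1.02 in 5C-E, 0.861 and 4.83 in 5C-F and 1.69 in 5C-S. For both genes the 5C-G libraries were the highest of all 13, and the differences of 5C from DMSO were not called (edgeR adjusted p = 0.426 for Ccl3 and 0.543 for Ccl4). The rise in 5C-G against 5C was 4.30-fold for Ccl3 (adjusted p = 0.00624) and 5.59-fold for Ccl4 (adjusted p = 0.0149). Without 5C library A the adjusted p was 0.0768 for Ccl3 and 0.119 for Ccl4, without 5C-G library B it was 0.0906 and 0.0765, and Ccl4 also lost its call without 5C library B (0.0765). Ccl5, which draws T cells and monocytes, stayed at or under 32 counts, with no counts in either 5C-E library. It was not called by edgeR in the 5 main comparisons, but DESeq2 called it in 5C-G and in 5C-C against 5C, and in 5C-C it was also called by edgeR with every gene kept, with counts halved and with only those 2 groups in the fit.

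**Figure D3:**
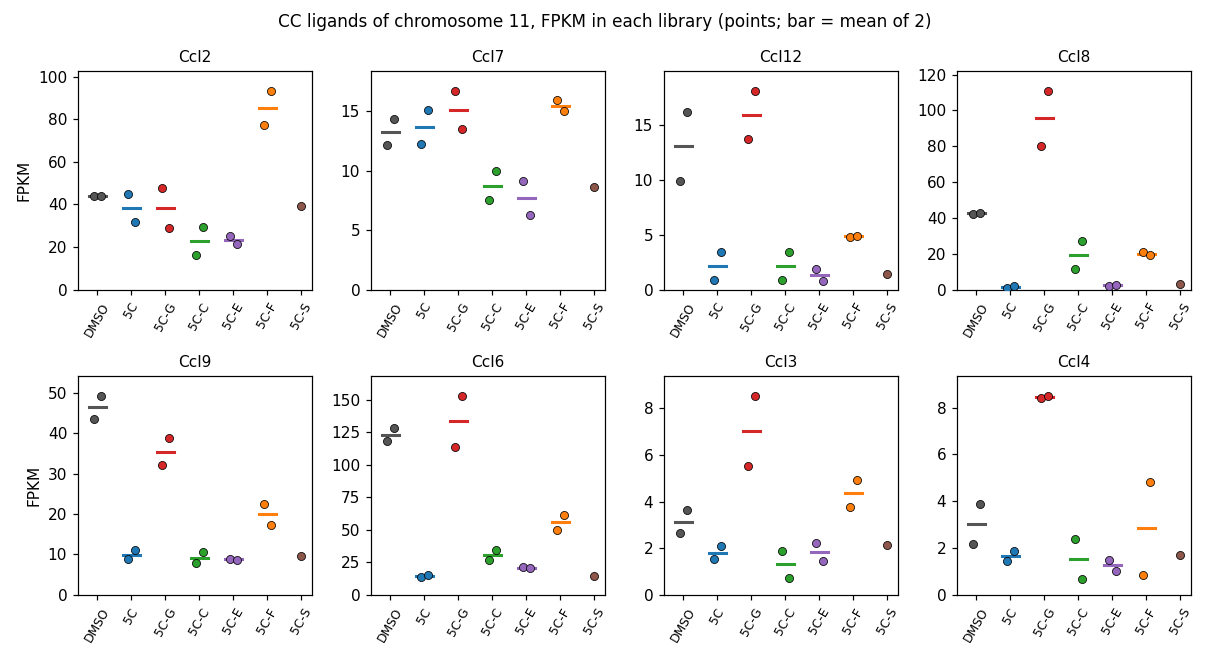
FPKM (vertical axes, linear from 0, each panel on its own scale) of 8 CC ligands of chromosome 11 in each library by group (horizontal axis), in genomic order, with points for libraries and bars for the mean of 2. Ccl8, Ccl12, Ccl9 and Ccl6 are high in DMSO and 5C-G, whereas Ccl2 is highest in 5C-F (77.2 and 93.4) and Ccl7 stays between 6.27 and 16.7.

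The ELR CXC ligands Cxcl1, Cxcl2, Cxcl3 and Cxcl5 attract neutrophils through Cxcr2 and lie together on chromosome 5. Their promoters share an exact motif, GGAATTTCC (searched on both strands), a form of the site bound by the inflammatory factor NF-kB. It was found in the 250 bases before the start of 6 of 34 members (Cxcl1, Cxcl2, Cxcl3, Cxcl5, Cxcl10 and Ccr3), beside 0.303% of 21757 protein-coding genes. This spelling was narrowed from a looser one after the windows had been seen, so these shares are no test of enrichment. The windows are shown for the 4 ELR ligands because each holds the motif, given in capitals, while Cxcl13, which was called lower in 5C-G together with Cxcl1 and Cxcl5, does not hold it (GRCm39, plus strand, chr5:91038844-91039093, chr5:91051480-91051729, chr5:90933712-90933961 and, ended before the annotated gene, chr5:90906987-90907185).
Cxcl1: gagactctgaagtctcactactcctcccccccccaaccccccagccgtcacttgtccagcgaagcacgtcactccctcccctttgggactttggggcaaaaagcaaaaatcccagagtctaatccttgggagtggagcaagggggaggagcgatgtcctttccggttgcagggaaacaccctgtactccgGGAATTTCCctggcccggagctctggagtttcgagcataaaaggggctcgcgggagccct
Cxcl2: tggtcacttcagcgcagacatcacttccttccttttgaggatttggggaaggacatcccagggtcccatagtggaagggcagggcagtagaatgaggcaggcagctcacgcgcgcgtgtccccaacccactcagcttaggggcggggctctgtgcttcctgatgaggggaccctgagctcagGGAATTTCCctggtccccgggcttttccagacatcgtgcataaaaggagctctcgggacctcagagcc
Cxcl3: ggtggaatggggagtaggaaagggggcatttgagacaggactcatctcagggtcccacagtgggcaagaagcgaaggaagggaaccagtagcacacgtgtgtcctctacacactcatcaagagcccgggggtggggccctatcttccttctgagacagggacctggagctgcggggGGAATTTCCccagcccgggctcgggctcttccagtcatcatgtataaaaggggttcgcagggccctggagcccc
Cxcl5: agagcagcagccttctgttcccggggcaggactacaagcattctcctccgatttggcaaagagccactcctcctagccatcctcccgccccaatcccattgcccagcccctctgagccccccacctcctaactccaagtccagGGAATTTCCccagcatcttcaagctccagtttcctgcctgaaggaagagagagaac

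The motif begins 60, 68 and 74 bases before the start of Cxcl1, Cxcl2 and Cxcl3. For Cxcl5 it begins 107 bases before the start of the gene's canonical transcript, which lies downstream of the annotated gene start where the printed window ends. Its presence is a description of the sequence and does not show that it was bound in these cells. Cxcl2, Cxcl3, Cxcl10 and Ccr3 also hold it and were not called in 5C-G against 5C. Of 3 further motifs, the interferon-stimulated response element was found at Cxcl10 and Cxcl14 (3.32% of all promoters), the cyclic AMP response element TGACGTCA at Cxcl16 (1.7%) and the AP-1 motif TGANTCA at Ccl7, Ccl9, Ccr3, Ccr7 and Cxcl10 (6.18%), each searched on both strands.

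Of the ELR ligands with counts in every group, which leaves out Cxcl3, Cxcl5 changed most. It was at 0.543 and 0.861 FPKM in DMSO, 4.37 and 2.53 in 5C, 0.400 and 0 in 5C-G, 2.16 and 1.62 in 5C-C, 2.23 and 3.70 in 5C-E, 7.71 and 7.87 in 5C-F and 1.45 in 5C-S. Both 5C-G libraries lay below all others, and both 5C-F libraries above. The difference of 5C-G from 5C was 16.5-fold (log2 fold change -4.05, SE 0.72, edgeR adjusted p = 7.33e-04), on 24 and 0 counts against 273 and 145. Cxcl5 was the only member called higher in 5C than in DMSO (4.67-fold, adjusted p = 0.0436), and that call was lost whichever library was left out (adjusted p = 0.0733 to 0.363) and with DESeq2 (0.2). The difference between 5C-F and DMSO was 11.3-fold (adjusted p = 0.00174), and that between 5C-G and 5C-F was 40.1-fold (adjusted p = 1.14e-04). Epithelial markers moved with it in part. Of 5 cholangiocyte markers, Epcam was called higher in 5C than in DMSO (log2 fold change 3.24, edgeR adjusted p = 0.00918), and Epcam and Sox9 lower in 5C-G than in 5C (-2.20, adjusted p = 0.0254 and -1.46, adjusted p = 2.12e-04). The 5C-G libraries disagreed for Epcam, at 6.1 and 0.249 FPKM against 18.4 and 11.9 in 5C. DESeq2 called 1 of the markers lower in this comparison, where edgeR called 2. The other 3 went the other way in 5C-G, with Krt19 at 100 and 123 FPKM against 77.1 and 71.9 in 5C, Krt7 at 42.1 and 52.5 against 28.9 and 30.6 and a list median of 0.41, though without a call. The cholangiocyte sum, most of it Spp1, was 2600 and 2960 FPKM in DMSO, 1980 and 1640 in 5C, 2440 and 1980 in 5C-G, 2110 and 1850 in 5C-C, 1510 and 1580 in 5C-E, 3420 and 3170 in 5C-F and 1460 in 5C-S, so it was highest in 5C-F like Cxcl5 but not lowest in 5C-G. The hepatocyte sum was also highest in 5C-F (21700 and 17200) and was 11800 and 10500 in DMSO, 11100 and 11000 in 5C, 6480 and 7780 in 5C-G, 5350 and 4850 in 5C-C, 3750 and 3230 in 5C-E and 7240 in 5C-S. The part of these cells in the Cxcl5 and Cxcl1 values was not tested.

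Cxcl1, the most abundant ELR ligand, covered a smaller range. It was at 7.10 and 7.72 FPKM in DMSO, 12.9 and 12 in 5C, 5.24 and 3.4 in 5C-G, 4.76 and 7.90 in 5C-C, 7.50 and 8.61 in 5C-E, 14.4 and 23.3 in 5C-F and 11 in 5C-S. The 5C libraries lay above DMSO without a call (1.60-fold, edgeR adjusted p = 0.188), and the 5C-G libraries lay below both. The fall in 5C-G against 5C was 2.66-fold (adjusted p = 0.00154). Cxcl1 was 2.57-fold higher in 5C-F than in DMSO (adjusted p = 0.00301, and 0.0541 without DMSO library A) and 5C-G was 4.28-fold below 5C-F (adjusted p = 8.47e-05). In 5C-C the 1.74-fold lower level than in 5C had an adjusted p of 0.0291 but stayed within the 2-fold limit, which it passed without 5C-C library B (log2 fold change -1.25).

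Cxcl2 and Cxcl3 were near the detection limit. Cxcl2 was at 0.119 and 0.0620 FPKM in DMSO, 0.288 and 0.378 in 5C, 0.0601 and 0.0794 in 5C-G, 0 and 0.106 in 5C-C, 0.159 and 0.296 in 5C-E, 0.200 and 0.633 in 5C-F and 0.156 in 5C-S. On 0 to 55 counts, it was not called by edgeR in the 5 main comparisons, except in 5C-C against 5C without 5C-C library B. Cxcl3 had no counts in both DMSO and both 5C-G libraries, 4 and 6 in 5C, 30 and 12 in 5C-C, 18 and 26 in 5C-F, 2 and 12 in 5C-E and 16 in 5C-S. Set against a floor of 3 counts per library, Cxcl3 was at least 7.41-fold higher in 5C-C and at least 6.16-fold higher in 5C-F than in DMSO. The calls of Cxcl3 against DMSO were lost for 5C-C without 5C-C library A (adjusted p = 0.0607) or either DMSO library (0.0885 and 0.099), and for 5C-F without any 1 library (0.0816 to 0.233). The neutrophil marker sum was 4 and 5.04 FPKM in DMSO, 1.35 and 0.689 in 5C, 2.4 and 4.65 in 5C-G, 3.93 and 4.51 in 5C-C, 3.9 and 1.56 in 5C-E, 1.03 and 0.963 in 5C-F and 1.83 in 5C-S. It was carried mainly by S100a8, which was called lower in 5C against DMSO (log2 fold change -2.23, edgeR adjusted p = 0.0434), and higher in 5C-G (2.07, adjusted p = 0.0227) and 5C-C (2.50, adjusted p = 0.00543) against 5C. Csf3r was called lower in 5C-C (-2.25, adjusted p = 0.0148) and 5C-E (-2.45, adjusted p = 0.0314) against DMSO. The part of neutrophils in the ELR ligand values was not tested.

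Among homeostatic ligands, Cxcl13, which guides B cells, had the clearest pattern. It was at 16.1 and 15.8 FPKM in DMSO, 25.5 and 30.7 in 5C, 1.95 and 3.21 in 5C-G, 11.9 and 7.15 in 5C-C, 8.62 and 4.34 in 5C-E, 48.4 and 48.7 in 5C-F and 15.8 in 5C-S. The 5C-F libraries were highest, followed by 5C, and the 5C-G libraries were lowest. Against 5C it was 9.74-fold lower in 5C-G (log2 fold change -3.28, SE 0.35, edgeR adjusted p = 5.48e-06), 4.54-fold lower in 5C-E (log2 fold change -2.18, SE 0.32, adjusted p = 7.47e-04) and 2.65-fold lower in 5C-C (log2 fold change -1.40, SE 0.32, adjusted p = 0.00235). These calls held without any 1 library. The difference of 5C-F from 5C was not called (1.85-fold, adjusted p = 0.0733) except with an offset for GC content and gene length (log2 fold change 1.00, adjusted p = 0.0342), but 5C-F was above DMSO (3.10-fold, adjusted p = 0.00224), above 5C-E (8.41-fold, adjusted p = 9.31e-06) and above 5C-G (18.1-fold, adjusted p = 1.88e-06). Compared with DMSO, 5C-G was 5.83-fold lower (adjusted p = 3.02e-04) and 5C-E 2.72-fold lower (adjusted p = 0.00661), the latter not called without DMSO library A (adjusted p = 0.0532) or 5C-E library B (0.139). Its receptor Cxcr5 had at most 30 counts in any library, and the B cell marker sum never passed 0.269 FPKM. Of 8 markers of stellate cells and fibroblasts, some moved with Cxcl13 and others did not. Lrat was at 0.0613 and 0.0599 FPKM in DMSO, 0.546 and 0.633 in 5C, 0.238 and 0.0614 in 5C-G, 0.198 and 0.0984 in 5C-C, 0.221 and 0.0916 in 5C-E and 1.65 and 0.956 in 5C-F. Against 5C, Lrat, Rgs5 and Reln were called lower in 5C-G and in 5C-C, and Reln in 5C-E. In contrast, Col1a1 was at 448 and 467 FPKM in 5C, 547 and 727 in 5C-G and 706 and 870 in 5C-E, Col1a2 was called lower in 5C-F against 5C (log2 fold change -1.55, edgeR adjusted p = 0.0135), and the sum over the list was lowest in 5C-F (742 and 664). Their part in the Cxcl13 calls was not tested.

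Cxcl14 and Cxcl17, ligands of epithelia and mucosa, were the 2 members of this role called higher in 5C-C. Cxcl14 was at 6.96 and 7.97 FPKM in DMSO, 5.71 and 6.90 in 5C, 9.78 and 10.1 in 5C-G, 11.6 and 17.5 in 5C-C, 8.22 and 14.2 in 5C-E, 4.03 and 4.35 in 5C-F and 9.09 in 5C-S. The 5C-C libraries lay above 5C and DMSO and overlapped only 5C-E. The rise in 5C-C against 5C was 2.60-fold (edgeR adjusted p = 0.00109), and against 5C-F it was 3.66-fold (adjusted p = 2.27e-04). Against DMSO the 2.09-fold difference (adjusted p = 0.00599) was not called without DMSO library A (adjusted p = 0.061) or 5C-C library B (0.101), nor with total counts as the only scaling (log2 fold change 0.97).

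Cxcl17 was at 5.69 and 4.35 FPKM in 5C-C, on 131 and 151 counts, and at 1.12 or below elsewhere, on 0 to 31 counts. Both 5C-C libraries stood apart from the other 11. The 14.5-fold difference from 5C (log2 fold change 3.86, SE 1.37) had an adjusted p of 0.036, which rose to between 0.0835 and 0.179 when any 1 library was left out and to 0.133 with DESeq2. In the same comparison the cholangiocyte marker Krt19 was called higher (224 and 202 FPKM against 77.1 and 71.9 in 5C), as 1 of 5 such markers, and the hepatocyte markers Alb and Cps1 lower, as 2 of 7. Their part in the Cxcl14 and Cxcl17 calls was not tested.

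Cxcl12, the stromal ligand of Cxcr4, varied within a narrow range. It was at 35.9 and 36.3 FPKM in DMSO, 56.9 and 58.3 in 5C, 39 and 30 in 5C-G, 30.8 and 31.1 in 5C-C, 60.4 and 55.4 in 5C-E, 42.0 and 40.1 in 5C-F and 60.7 in 5C-S. The cultures 5C, 5C-E and 5C-S formed the high group, and the rest lay at or under 42.0. The differences had small adjusted p-values but stayed within 2-fold, at 1.52-fold higher in 5C than in DMSO (edgeR adjusted p = 0.0253), 1.53-fold lower in 5C-G against 5C (adjusted p = 0.00793) and 1.66-fold lower in 5C-C (adjusted p = 0.00161). Stellate cell and fibroblast markers, a usual source of Cxcl12 in liver, summed to between 664 and 1200 FPKM, with 5C-E and 5C-S among the highest and 5C-F lowest. In 5C-C the sum was 1080 and 893 beside 979 and 1000 in 5C, and single markers differed. Col1a1 was at 779 and 647 FPKM in 5C-C against 448 and 467 in 5C, and Dcn at 200 and 177 against 403 and 396. Of the 8 markers, Lrat, Rgs5 and Reln were called lower than in 5C in both 5C-C and 5C-G. The part of these cells in the Cxcl12 values was not tested.

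**Figure D4:**
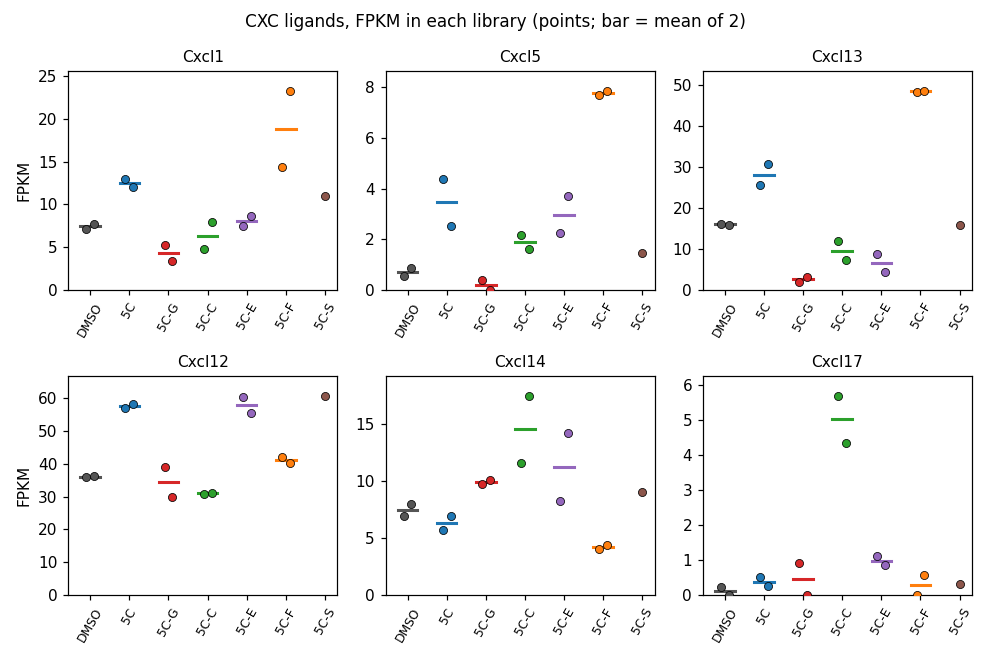
FPKM (vertical axes, linear from 0, each panel on its own scale) of 6 CXC ligands in each library by group (horizontal axis), with points for libraries and bars for the mean of 2. Cxcl1, Cxcl5 and Cxcl13 are lowest or near lowest in 5C-G and highest in 5C-F, Cxcl12 is highest in 5C, 5C-E and 5C-S, and Cxcl17 stands out in 5C-C (5.69 and 4.35).

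The membrane-bound ligands Cxcl16 and Cx3cl1 were detected in every library and were called by edgeR neither in the 5 main comparisons nor in any removal against DMSO, apart from the settings named here. Cxcl16, which also acts as a scavenger receptor, was at 26.3 and 27.0 FPKM in DMSO, 18.5 and 20.6 in 5C, 25.1 and 29.8 in 5C-G, 22.0 and 27.1 in 5C-C, 16.8 and 17.6 in 5C-E, 35 and 36.3 in 5C-F and 19.9 in 5C-S. The 5C-F libraries were highest, 1.95-fold above 5C (edgeR adjusted p = 0.00463) and so just short of the 2-fold limit, which was passed without 5C library B (log2 fold change 1.07). Cx3cl1, or fractalkine, was at 24.8 in both DMSO libraries, 22.5 and 27.5 in 5C, 16.9 and 14.5 in 5C-G, 13.8 and 14.7 in 5C-C, 18.3 and 21.3 in 5C-E, 14.4 and 19.5 in 5C-F and 25.6 in 5C-S. Both libraries of each tested removal lay below DMSO and 5C. Against 5C the difference was 1.46-fold in 5C-G (edgeR adjusted p = 0.0354) and 1.56-fold in 5C-C (adjusted p = 0.0103). It was 1.33-fold in 5C-E (adjusted p = 0.302) and 1.38-fold in 5C-F (adjusted p = 0.104). With an offset for GC content and gene length the 5C-C difference passed 2-fold (log2 fold change -1.14), and Cx3cl1 was then also called in 5C-C against DMSO.

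The remaining ligands were low. Cxcl10, an interferon-induced ligand of Cxcr3, was at 0.267 and 0.541 FPKM in DMSO, 0.317 and 0.463 in 5C, 0.248 and 0.0972 in 5C-G, 0.411 and 0.243 in 5C-C, 0.146 and 0.190 in 5C-E, 0.413 and 0.306 in 5C-F and 1.11 in 5C-S. Only the single 5C-S library stood above the others, and it had no replicate. Ccl24 is an eosinophil attractant, and Ccl17 is a ligand of Ccr4 made by dendritic cells and macrophages. Ccl17 was at 1.17 and 1.87 FPKM in DMSO, 4.4 and 3.86 in 5C, 1.33 and 2.02 in 5C-G, 1.03 and 7.25 in 5C-C, 1.39 and 1.91 in 5C-E, 2.81 and 3.24 in 5C-F and 3.76 in 5C-S. The 5C libraries lay above DMSO (2.58-fold, edgeR adjusted p = 0.362) and above 5C-G, 5C-E and 5C-F without a call, and the 5C-C libraries spanned all others. Ccl24 was at 0.169 and 0.248 FPKM in DMSO, 0.874 and 0.151 in 5C, 0.576 and 0.380 in 5C-G, 0.0510 and 0.711 in 5C-C, 0.276 and 0.378 in 5C-E, 0.638 and 0.661 in 5C-F and 0.249 in 5C-S, so that the libraries of 5C and of 5C-C lay further apart than most groups. Ccl28, a mucosal ligand, was at 0.0226 and 0 in DMSO, 0.0984 and 0.108 in 5C, 0.0385 and 0.0452 in 5C-G, 0.136 and 0.0453 in 5C-C, 0.136 and 0.0759 in 5C-E, 0.0533 and 0.0491 in 5C-F and 0.0242 in 5C-S. At 0 to 24 counts per library, differences of Ccl28 were not detectable at this depth. Ccl25, a gut ligand, ranged from 0.153 to 0.760 FPKM, and its gene overlaps Elavl1. Ccl20, which draws Ccr6-bearing cells, was at 1.42 and 2.08 in 5C-F and at or under 0.698 elsewhere, without a call against 5C (5.45-fold, edgeR adjusted p = 0.176). None of these 6 genes was called by edgeR in the 5 main comparisons with all libraries and groups in the fit. Ccl20 was called in 5C-F against 5C by limma and with only those 2 groups in the fit, and in 5C-G against 5C without 5C-G library A.

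Receptors were dominated by Ccr1, which binds Ccl3, Ccl6 and Ccl9 and is carried by monocytes and macrophages. Ccr1 was at 50.6 and 51.6 FPKM in DMSO, 5.72 and 7.17 in 5C, 36.7 and 31.9 in 5C-G, 9.23 and 9.90 in 5C-C, 8.88 and 9.84 in 5C-E, 9.85 and 9.78 in 5C-F and 6.12 in 5C-S. Only 5C-G approached DMSO, and no other library exceeded 9.90. The fall in 5C was 8.34-fold (log2 fold change -3.06, SE 0.19, edgeR adjusted p = 1.82e-08), and the rise in 5C-G against 5C was 5.81-fold (log2 fold change 2.54, SE 0.19, adjusted p = 1.71e-07). Without CID755673 and without forskolin Ccr1 stood 1.66-fold (adjusted p = 0.00397) and 1.63-fold (adjusted p = 0.0197) above 5C, inside the 2-fold limit. With an offset for GC content and gene length the first passed it (log2 fold change 1.36, adjusted p = 6.45e-05). The removals differed, with Ccr1 3.49-fold higher in 5C-G than in 5C-C (adjusted p = 5.06e-06) and 3.57-fold higher than in 5C-F (adjusted p = 5.41e-06).

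Cxcr4, the receptor of Cxcl12, is carried by many leukocytes and by progenitor cells. It was at 13.1 and 13.9 FPKM in DMSO, 2.97 and 3.08 in 5C, 9.27 and 8.14 in 5C-G, 2.50 and 2.67 in 5C-C, 3.26 and 3.76 in 5C-E, 3.56 and 3.74 in 5C-F and 2.69 in 5C-S. The same 2 groups were high as for Ccr1. Its fall in 5C was 4.70-fold (edgeR adjusted p = 6.81e-06) and its rise in 5C-G against 5C 3.15-fold (adjusted p = 1.16e-04). It was 2.44-fold higher in 5C-G than in 5C-F (adjusted p = 0.00112). The differences of its ligand Cxcl12 given above were opposite in sign to those of Cxcr4 in both comparisons and stayed within the 2-fold limit.

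Cx3cr1, the fractalkine receptor of monocytes and macrophages, was low throughout. It had 106 and 76 counts in DMSO, 14 and 10 in 5C, 14 and 10 in 5C-G, none in both 5C-C libraries, 2 and 2 in 5C-E, 115 and 24 in 5C-F and none in 5C-S. The 5C-F libraries disagreed, 1 of them lying above DMSO and 1 near 5C. With 3 counts per library as the floor, Cx3cr1 in 5C-C was at least 30.5-fold lower than in DMSO and at least 4.03-fold lower than in 5C. The ratio of DMSO to 5C-E was 46.4, with a binomial 95% interval from 17.8 to 172 for counting error only. The interval takes counts as independent, which the excess of even low counts described below puts in doubt, so it may be too narrow. The fall in 5C against DMSO missed the threshold (edgeR adjusted p = 0.0666), passing it with DESeq2 (0.0241). In 5C-G against DMSO the adjusted p was 0.0416, and 0.0729 to 0.287 when any 1 library was left out. None of the calls of Cx3cr1 against 5C or DMSO held with limma on the log2(FPKM + 1) scale, which reduces the fold changes of genes this low.

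Ccr3, Ccr7, Ccr10, Cxcr3 and Cxcr5 had at most 56 counts in any library and were not called by edgeR, DESeq2 or limma in the 5 main comparisons, although Cxcr5 passed an unadjusted p under 0.05 in 5C against DMSO. Ccr10 reached that maximum in 5C-C library B and overlaps Cntnap1. Cxcr5 had no counts in any 5C, 5C-C or 5C-F library and Ccr7 none in any DMSO, 5C or 5C-G library.

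**Figure D5:**
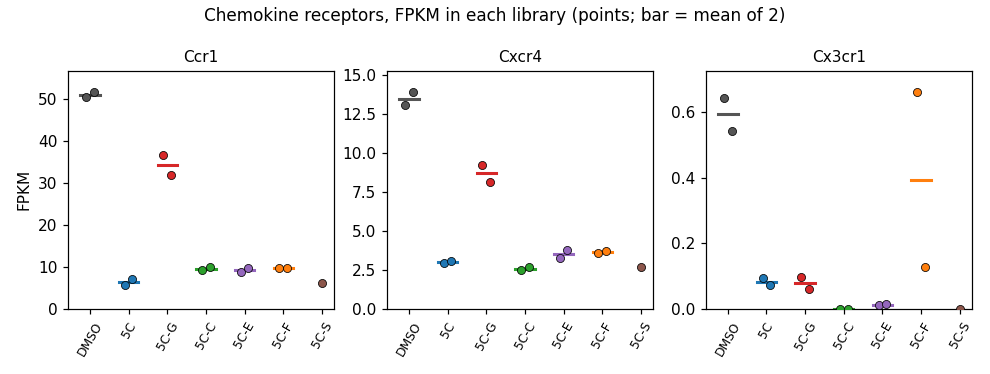
FPKM (vertical axes, linear from 0, each panel on its own scale) of Ccr1, Cxcr4 and Cx3cr1 in each library by group (horizontal axis), with points for libraries and bars for the mean of 2. Ccr1 and Cxcr4 are high in DMSO and 5C-G, and the 5C-F libraries disagree for Cx3cr1 (0.659 and 0.127).

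Salidroside removal had 1 library and was not tested. In 5C-S against 5C, 6 members were more than 2-fold higher (background 8.3% of all genes) and 9 more than 2-fold lower (background 10.6%). The higher ones were Ccl5, Ccl8, Cxcl3, Cxcl10, Ccr3 and Cxcr5, and the lower ones included Ccl20, Ccl24, Ccl28, Cxcl2, Cxcl5, Ccr10, Cx3cr1 and Cxcr3. Most of these genes had few counts, and those with more than 50 counts in 5C-S were Ccl8 (58, at 3.33 FPKM against 0.933 and 1.78), Cxcl10 (85, at 1.11 against 0.317 and 0.463) and Cxcl5 (92, at 1.45 against 4.37 and 2.53). Cxcl13 was at 15.8 in 5C-S, below both 5C libraries but within 2-fold of their mean.

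Related genes outside the member rule moved in part with the members. Of 10 other chemokines and atypical receptors on a fixed list, 6 were tested. Pf4, a CXC chemokine of platelets and macrophages, was lower in 5C than in DMSO (log2 fold change -3.33, SE 0.33, edgeR adjusted p = 2.45e-06) and higher than in 5C after each tested removal, from 1.70 (SE 0.31, adjusted p = 0.00492) in 5C-E to 3.92 (SE 0.34, adjusted p = 6.67e-07) in 5C-G. Cmklr1, the chemerin receptor, was lower in 5C (log2 fold change -1.84, adjusted p = 5.27e-04). Ackr4, a scavenger of homeostatic CC ligands, was higher in 5C (log2 fold change 1.93, adjusted p = 0.011), and Ackr3, a scavenger of Cxcl12, was lower in 5C-F against 5C (log2 fold change -1.24, adjusted p = 0.00159).

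Of 22 genes that carry signals from chemokine receptors in leukocytes, 21 were tested. In 5C against DMSO 14 were lower, among them the small GTPase Rac2 (log2 fold change -3.04, SE 0.30, edgeR adjusted p = 2.33e-06) and its exchange factor Dock2 (-2.77, SE 0.26, adjusted p = 1.34e-06). The background of lower calls was 2.89%. Those higher than in 5C numbered 15 without GSK429286A (background 7.47%), 7 without forskolin (2.69%), 3 without CID755673 (9.65%, a share near that of the list) and 2 without ETC-1002 (0.654%). Their median log2 fold change was -1.97 in 5C against DMSO and 1.57 in 5C-G against 5C. The macrophage marker sum moved in the same direction, and its part in these calls was not tested. Of 18 listed upstream inducers and transcription factors, 13 were tested. In 5C against DMSO only Irf5 was called, lower (log2 fold change -1.21, edgeR adjusted p = 0.00175, background 2.89%). Against 5C, Irf5 and Irf7 were higher in 5C-G (background 7.47%) and Il1a, Il6, Nfkb2 and Irf7 in 5C-C (background 9.65%). Il6 was lower in 5C-F (background 2.15%).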

How the data were processed

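RNA from mouse dHeps after 16 days of culture was sequenced by the authors as paired-end reads on a NovaSeq instrument and mapped to GRCm39, and they deposited a table of counts per gene, not normalized, and a table of FPKM, the counts scaled by gene length and library total. The submitters' processing notes name featureCounts, Subread and DESeq2, with no version in the sources used here. Groups were taken from the labels and columns matched by group name, so the libraries of a group are called A and B in column order. The members and lists were chosen with earlier results of these data known.

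Counts were tested with edgeR 4.0.16 in R 4.3.3 (TMM scaling, filterByExpr with a minimum count of 10, glmQLFit and glmQLFTest) in one fit of all 13 libraries and 19884 genes, with 6 residual degrees of freedom. This took the place of the DESeq test of the study's methods, and the single 5C-S library was compared without a test. The biological coefficient of variation was 0.261. Genes were called at a p under 0.05 after Benjamini-Hochberg adjustment and a log2 fold change beyond 1, and standard errors were derived from the F statistic. Levels are the authors' deposited FPKM, and tests use the counts. The floor of a group was 3 counts in each of its libraries, and bounds cover counting error only, as the reads carry no molecular identifiers. In every library, 68.5% to 73.9% of counts from 1 to 10 were even, beside 49.2% to 52.2% of counts from 201 to 1000, so counts were also halved and rounded up, an alternative chosen after seeing the data. Chi-square per degree of freedom between the 2 libraries of a group was 8.01 to 86.6, above counting noise in each pair. Alternatives were total counts as the only scaling, every gene kept, an offset for GC content and length, DESeq2 1.42.0, limma 3.58.1 on log2(FPKM + 1), only the compared groups in the fit, an unadjusted p, and leaving out each library. A group with a library left out kept 1, so the spread then came from the other groups of the fit. The procedure was tested on simulated data. Promoter windows and positions were read from GRCm39 with the GENCODE vM39 annotation. The members were named, except for an item that is not reported here but is part of the counts and sums, and library values were given for members called in the 5 main comparisons, those the study's text names and the 6 with the highest mean FPKM. Protein sequences were not used here.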

Additional observations from a re-analysis of the deposited data

How the results depend on the processing

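The number of called members stayed within 1.5 times the reported one in most settings. At an unadjusted p under 0.05 it was 2 in 5C-E against 5C, 8 in 5C-F against 5C and 7 in 5C-G against DMSO, where 1, 4 and 4 were reported. In 5C-G against DMSO it was 2 with limma on log2(FPKM + 1), and 2 to 6 when 1 library was left out. The cause was not tested. The number of members past 2-fold in 5C-S against 5C was 15, and 0 on the log2(FPKM + 1) scale, which by construction shrinks low genes. Of 117 single differences tested, no setting reversed a direction. With all libraries kept, 773 of 818 alternative values stayed on the same side of the threshold, 29 lost a call and 16 gained one. Leaving out 1 library kept 407 of 468, lost 57 and gained 4.

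With total counts as the only scaling the median of all genes moved to -0.14 in 5C-G against 5C, -0.15 in 5C-C against 5C, -0.11 in 5C-F against 5C and 0.16 in 5C-E against DMSO. The genes called higher were then 1131 of 2603 in 5C-G (1485 of 2607 with TMM), 1398 of 4135 in 5C-C (1918 of 4011) and 369 of 955 in 5C-F (534 of 962), all against 5C. No paired analysis was possible because the sample titles share no replicate number between groups, and the columns are only numbered anew within each group, with numbers that do not follow those in the titles. The receptors Ccr3, Ccr7, Ccr10, Cxcr3 and Cxcr5 and the ligands Ccl28, Cxcl2 and Cxcl3 had at most 56 counts in any library. With 2 libraries per group, differences of these genes were not detectable at this depth unless large.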
